A study of Mus musculus with 6 samples.

Results

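The 10 genes described here encode the MHC class I molecule of the mouse, the machinery that loads it with peptide, the inducible proteasome subunits that cut many of those peptides, and a transactivator of class I genes. They were taken by symbol from a table of 29734 genes, and each of the 10 symbols (H2-K1, H2-D1, B2m, Tap1, Tap2, Tapbp, Psmb8, Psmb9, Psmb10 and Nlrc5) stood on 1 row. All 10 were among the 18931 genes with enough counts to be tested. The table came from mRNA sequencing of whole liver of male mice that received a Western diet for 20 weeks, starting at 8 weeks of age. The Prdx1 C52S group (3 libraries, numbered 1, 2 and 4) carried a peroxiredoxin 1 allele with serine in place of cysteine 52, and the WT group (3 libraries, numbered 6, 8 and 9) carried the wild-type gene. Both groups ate the Western diet, so that no library shows the liver without it. The sources used here do not give strain, zygosity or any pooling of animals, and p-values therefore measure the spread between these 6 libraries. Library totals ran from 60326469 to 76164949 estimated counts. Prdx1 itself had a mean of 247 FPKM in the mutant and 246 FPKM in the WT libraries, a level that cannot check the label, since the allele changes 1 amino acid.

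MHC class I molecules carry peptides from proteins made inside the cell to its surface, where CD8 T cells and natural killer cells read them. Proteasomes cut the proteins, the TAP transporter moves the peptides into the endoplasmic reticulum, tapasin holds the empty class I molecule beside TAP, and beta-2-microglobulin completes the complex. Interferon-gamma raises most of these genes, and it replaces the 3 catalytic subunits of the standard proteasome (Psmb5, Psmb6 and Psmb7) by those of the immunoproteasome (Psmb8, Psmb9 and Psmb10) in newly built particles. Nlrc5 is a transcriptional coactivator that acts on class I promoters. In liver, hepatocytes express class I molecules, while the resident and recruited immune cells hold much of the immunoproteasome.

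Of the 10 genes, 7 lie in the MHC on chromosome 17, within 1.35 Mb (chr17:33915899-35267499, GRCm38). In that segment Psmb9, Tap1, Psmb8 and Tap2 stand side by side over 34.3 kb. Psmb10 (chr8:105935735-105938104) and Nlrc5 (chr8:94434356-94527272) are on chromosome 8, and B2m (chr2:122147686-122153083) is on chromosome 2. Tap1 and Psmb9 are read away from each other, and their gene models overlap by 212 bp. RefSeq promoters (GRCm38.p6) were found for 8 of the 10 genes, with 9 windows in all, of which 1 was used for each gene. In the 250 bases before each of these starts, 6 short motifs were searched on both strands.

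The promoters of the heavy chains and of beta-2-microglobulin are shown because these 3 genes carry the molecule itself and have their highest levels here. A further reason is that in FPKM the groups overlapped for H2-K1 and not for H2-D1. In the stretch that holds the NF-kB core GGGATTCCC and the interferon response core TTTCACTT, both in capitals, the 28 bases of the 2 heavy chains differ at 1 position. The stretches lie 110 bases (H2-K1, chr17:34000430-34000457, minus strand) and 170 bases (H2-D1, chr17:35262924-35262951, plus strand) before the RefSeq start. The deposited gene model of H2-D1 begins earlier, at chr17:35262730, so that the H2-D1 stretch lies inside that model.
H2-K1 enhancer: GGGATTCCCcatctccacagTTTCACTT
H2-D1 enhancer: GGGATTCCCcatctcctcagTTTCACTT

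Nearer to the start, 5 of the 8 genes had the CRE core TGACG, shown in capitals with 8 bases on each side for 4 of them. In these 21 bases the heavy chains differ at 3 positions, and B2m and Tap1 at 5. The fifth copy, in the Psmb9 window, is the Tap1 copy read from the other strand, because the starts of these 2 genes are 225 bases apart.
H2-K1 CRE: gacactgtTGACGcgcagtca
H2-D1 CRE: gacactgaTGACGcgctggca
B2m CRE: gagactggTGACGacctccgg
Tap1 CRE: gagacaggTGACGacagaggg

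The longer promoter stretches of H2-K1 (chr17:34000348-34000472, minus strand) and B2m (chr2:122147502-122147685, plus strand) show these motifs in place, with the CCAAT box read as ATTGG from the other strand. In B2m the capitals also mark AAACTGAAA, the reverse complement of the spaced interferon response core TTTCNNTTT.
H2-K1 promoter: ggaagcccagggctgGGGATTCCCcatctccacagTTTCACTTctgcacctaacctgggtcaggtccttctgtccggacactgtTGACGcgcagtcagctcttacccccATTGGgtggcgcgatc
B2m promoter: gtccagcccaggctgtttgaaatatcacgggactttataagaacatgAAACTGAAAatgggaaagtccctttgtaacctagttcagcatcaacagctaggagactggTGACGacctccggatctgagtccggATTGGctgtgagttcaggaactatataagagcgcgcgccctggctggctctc

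The NF-kB core was present before the start of 2 of the 8 genes and in 0.301% of 32851 promoters of the same length. For the interferon response core the figures were 2 of 8 and 1.36%, for its spaced form 1 of 8 (B2m) and 9.37%, and for the gamma-activated site TTCNNNGAA 1 of 8 (Psmb8) and 7.02%. The CRE core occurred in 5 of 8 and 17.8%, and the CCAAT box in 6 of 8 and 33.8%. Counts are of genes with 1 window each, and shares are of promoters. These are matches of letters and describe the windows only.

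Across the 2 genotypes, transporter, tapasin, immunoproteasome and Nlrc5 transcripts had mean FPKM values between 25.6% and 37.0% lower in Prdx1 C52S liver, and H2-D1 was 24.5% lower, whereas H2-K1 and B2m were within 8.01% of WT. FPKM is the number of fragments per kilobase of transcript, scaled to library depth, a level per length. In 8 of the 10 genes every mutant library lay below every WT library in FPKM, a pattern that 36.7% of all genes tested also showed. None of the 10 passed an adjusted p of 0.05 in edgeR's quasi-likelihood test on all 6 libraries, where 0% of genes did so in this direction. Within the proteasome, each immunoproteasome subunit was lower in every mutant library relative to the constitutive subunit it replaces, by 30.5% to 44.0%. The constitutive subunits were themselves higher in every mutant library, which is part of these differences.

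The class I heavy chains present the peptide. H2-K1 had 351, 375 and 413 FPKM in Prdx1 C52S 1, 2 and 4 and 409, 379.6 and 388 FPKM in WT 6, 8 and 9. The groups overlapped, and Prdx1 C52S 4 was the highest library of all 6. The means were 379.7 ± 31.6 and 392 ± 15.1 FPKM (SD, n = 3). H2-D1, the second classical heavy chain of this table, had 219, 207 and 259 FPKM in the mutant and 299, 317 and 291 FPKM in the WT libraries. Here the groups did not overlap, and the means of 228 ± 27.3 and 302 ± 13.5 FPKM (SD, n = 3) differed by 24.5%. Of the 150-base stretches of an H2-D1 reference transcript, 1.79% also occur in H2-Q1, so that a small part of its reads may have been shared.

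B2m, the light chain of every class I molecule, had the highest level of the 10 genes. It reached 1476, 1516 and 1719 FPKM in the mutant and 1786, 1628 and 1708 FPKM in the WT libraries, and the groups overlapped. Prdx1 C52S 4 lay above WT 8 and WT 9. B2m took between 0.141% and 0.171% of all estimated counts in a library.

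The peptide transporter is built from 2 half-transporters. Tap1 had 4.76, 5.30 and 6.19 FPKM in the mutant and 7.63, 8.56 and 7.02 FPKM in the WT libraries, with no overlap. Tap2 had 5.75, 6.08 and 6.81 FPKM against 8.74, 13.2 and 7.62 FPKM, again with no overlap, but with WT 8 far above the other 2 WT libraries. Tapbp encodes tapasin, which bridges TAP and the empty class I molecule. Its 3 mutant values of 14.7, 14.2 and 14.8 FPKM were close together, below the WT values of 20.0, 27.0 and 17.5 FPKM. In Tapbp 24.9% of exon bases also belong to a gene on the other strand (Gm19412), in Tap2 14.1% (Gm15821) and in Psmb8 14.7% (Gm20496). Whether counting used the strand is not given in the sources used here, so that reads of these pairs may have been mixed.

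Of the immunoproteasome subunits, Psmb8 (beta-5i) had 6.43, 6.89 and 7.60 FPKM in the mutant and 10.3, 10.9 and 8.32 FPKM in the WT libraries. Psmb9 (beta-1i) had 4.63, 5.50 and 5.85 FPKM against 8.23, 6.64 and 6.61 FPKM. Psmb10 (beta-2i) was the most abundant of the 3, with 11.6, 12.5 and 10.7 FPKM against 16.2, 21.2 and 14.8 FPKM. All 3 separated the groups. Nlrc5, the transactivator, was the least abundant of the 10 genes, with 3.15, 2.84 and 3.31 FPKM in the mutant and 4.41, 5.58 and 3.93 FPKM in the WT libraries. Its groups did not overlap either, and its means were 3.10 ± 0.235 and 4.64 ± 0.850 FPKM (SD, n = 3).

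**Figure D1:**
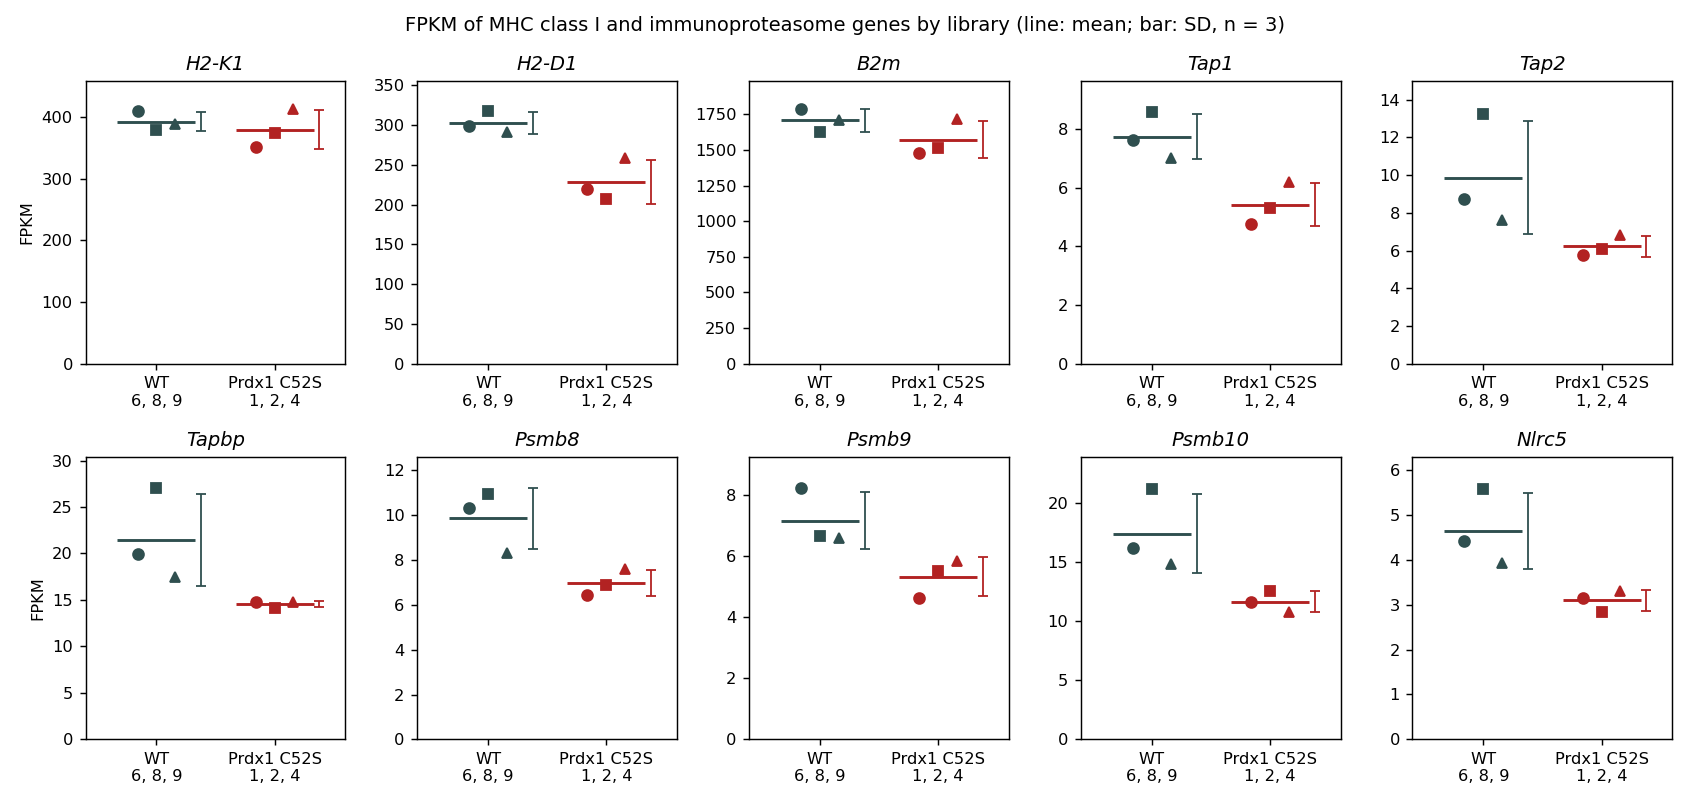
FPKM (y axis, linear, from 0) of each of the 10 genes in the 3 WT and 3 Prdx1 C52S libraries; points are libraries in the order given under the axis, the horizontal line is the mean and the bar the SD. The groups overlap for H2-K1 and B2m and are apart for the other 8 genes, for example Tap1 at 4.76 to 6.19 FPKM in the mutant and 7.02 to 8.56 FPKM in the WT libraries.

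The libraries were ordered in a similar way from gene to gene. Prdx1 C52S 4 was the highest mutant library in 9 of the 10 genes and Prdx1 C52S 1 the lowest in 6. Among the WT libraries WT 8 was the highest in 7 genes and WT 6 in the other 3 (H2-K1, B2m and Psmb9), while WT 9 was the lowest in 8. WT 8 also stood apart by its trimmed mean of M-values (TMM) factor, the edgeR scaling factor that corrects for differences in RNA composition. It was 1.28 in WT 8, 1.04 and 1.03 in WT 6 and WT 9, and between 0.883 and 0.920 in the mutant libraries.

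The choice of scale matters for these genes. With TMM factors the median log2 fold change of all genes tested (Prdx1 C52S minus WT) was -0.03, and with library totals, the scale closest to FPKM, it was -0.34, a shift of -0.31. The 10 genes had a median of -0.21 with TMM factors and -0.51 with library totals. Relative to all genes these are -0.18 and -0.17. A change of scaling factors moves all genes by nearly the same amount, so this distance had to stay alike on both scales. It was -0.14 with DESeq2, -0.27 with limma on log2(FPKM + 1) and -0.35 with quantile normalisation. With TMM factors this distance was -0.09 without Prdx1 C52S 1 and -0.11 without WT 6, and their own median was then -0.13 and -0.14.

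With TMM factors, 8 of the 10 log2 fold changes were negative and 2 positive. The most negative was Tap2 at -0.35 ± 0.14 (SE, adjusted p = 0.175, edgeR). It was followed by Nlrc5 at -0.28 ± 0.097 (adjusted p = 0.135), Psmb10 at -0.27 ± 0.10 (adjusted p = 0.152) and Tapbp at -0.25 ± 0.10 (adjusted p = 0.184). These 4 genes were below an unadjusted p of 0.05, as were 14.8% of all genes tested in the same direction. Tap1 was at -0.22, Psmb8 at -0.20, Psmb9 at -0.15 and H2-D1 at -0.12, none of them below an unadjusted p of 0.05. These smaller values depended on single libraries: Tap1 was at -0.12 without Prdx1 C52S 1, and Psmb8 at -0.13 without it and at -0.11 without WT 6. H2-D1 ran from -0.06 without Prdx1 C52S 2 to -0.22 without Prdx1 C52S 4. H2-K1 was at 0.23 and B2m at 0.16 with TMM factors, and at -0.06 and -0.13 with library totals. Relative to the median gene they stood above it on both scales, H2-K1 by 0.27 and 0.29 and B2m by 0.19 and 0.21. Without WT 8 and with TMM factors these distances were 0.13 and 0.05, and with quantile normalisation both genes lay below the median gene, by -0.29 and -0.42. On TMM-scaled counts (CPM), 3 genes had groups apart in the lower direction (Tapbp, Psmb10 and Nlrc5), against 18.0% of all genes, and none in the higher direction, against 16.9%.

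Other settings moved the count of these genes below an unadjusted p of 0.05, and the share of all genes moved with it. With library totals it was 8 of 10 (all but H2-K1 and B2m), beside 30.4% of all genes, and with limma on log2(FPKM + 1) it was 8 of 10, beside 23.3%. Quantile normalisation with limma gave 7 of 10, beside 11.7%. With DESeq2 the count was 1 of 10 (Nlrc5), beside 10.8%, and none passed its adjusted p, beside 9.06%. Leaving out WT 8 gave 1 of 10 (Nlrc5), beside 11.1%, and leaving out Prdx1 C52S 2 gave 1 of 10, beside 9.02%. It was 0 of 10 without WT 6, beside 12.8%, and 0 of 10 without Prdx1 C52S 1, beside 12.0%. At an adjusted p of 0.05, the fit without WT 8 called 1.94% of all genes lower and none of the 10.

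Without WT 8 the fold changes of the 4 genes were -0.20 for Tap2, -0.24 for Nlrc5, -0.22 for Psmb10 and -0.17 for Tapbp. Of these 4, the value of Tap2 depended on that library by more than 1.5 times. Psmb9 went the other way, from -0.15 to -0.28, and it was at 0.02 without WT 6. A fit chosen after the data were seen, with library totals and without WT 8, put Nlrc5 at -0.44 with an edgeR adjusted p of 0.0499, the only one of the 10 genes below 0.05, while 5.96% of all genes were called lower there. Over the other settings the adjusted p of Nlrc5 ran up to 0.360.

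**Figure D2:**
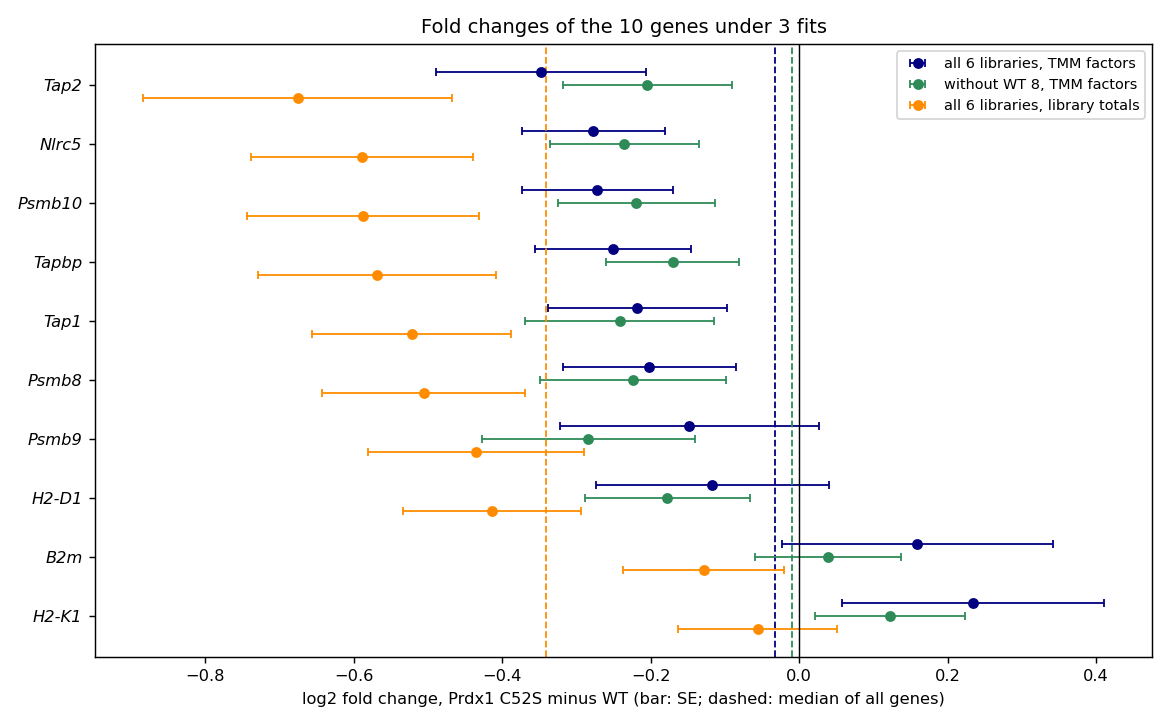
Log2 fold change (x axis, Prdx1 C52S minus WT, bars are SE) of each of the 10 genes in 3 edgeR fits, with the median of all genes in each fit as a dashed line. With TMM factors 8 genes lie below 0 and H2-K1 (0.23) and B2m (0.16) above it; with library totals the whole set shifts with the median of all genes, from -0.03 to -0.34, and H2-K1 (-0.06) and B2m (-0.13) change sign.

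Ratios of 2 genes within a library do not depend on library scaling. Psmb8 replaces Psmb5, Psmb9 replaces Psmb6 and Psmb10 replaces Psmb7 when an immunoproteasome is assembled. The ratio of Psmb8 to Psmb5 in FPKM was 0.0672, 0.0721 and 0.0796 in the mutant and 0.139, 0.147 and 0.0963 in the WT libraries. It was 42.0% lower in Prdx1 C52S, a difference of -0.79 on the log2 scale, and the groups did not overlap. For Psmb9 to Psmb6 the ratio was 0.120, 0.135 and 0.147 against 0.237, 0.173 and 0.173, a difference of -0.53 or 30.5%. Psmb10 to Psmb7 gave 0.374, 0.391 and 0.346 against 0.671, 0.846 and 0.508, a difference of -0.84 or 44.0%.

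Each of these 3 differences had an exact two-sided permutation p of 0.10, which is the smallest that 3 libraries against 3 can give, and 0.10 after Benjamini-Hochberg adjustment over the 3 ratios. The design thus cannot reach 0.05 for a single ratio. In FPKM all 3 immunoproteasome subunits were lower, and all 3 constitutive ones higher, in every mutant library. The ratios therefore had to separate the groups, and the test adds nothing to the values of the single genes. Without WT 8 the differences were -0.67, -0.60 and -0.66. Expressed as a share of the 2 alternative subunits together, Psmb8 made up 6.80 ± 0.541% in the mutant and 11.3 ± 2.18% in the WT libraries (SD, n = 3). The shares were 11.8 ± 1.05% and 16.2 ± 2.56% for Psmb9, and 27.0 ± 1.24% and 39.9 ± 6.07% for Psmb10. These shares describe transcripts in whole liver and not assembled particles.

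**Figure D3:**
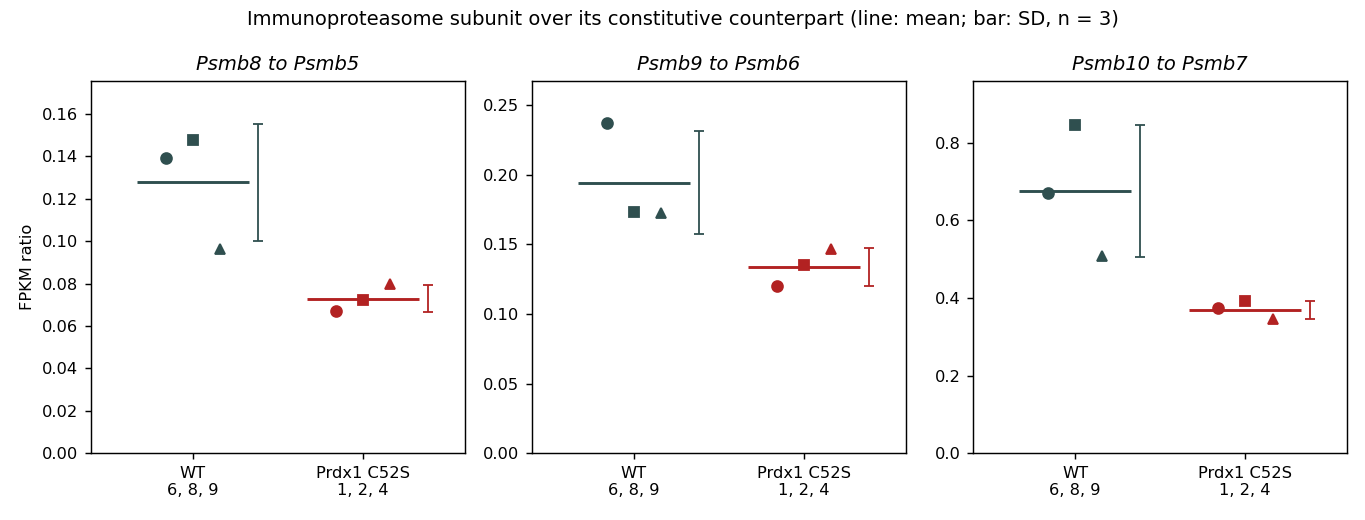
Ratio of the FPKM of each immunoproteasome subunit to that of its constitutive counterpart (y axis, linear, from 0) in each library, with the mean as a line and the SD as a bar. The groups are apart in all 3 panels, for example Psmb8 to Psmb5, where the highest mutant library is at 0.0796 and the lowest WT library at 0.0963.

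Numerators and denominators lay apart in opposite directions, and which of them differed more depended on the scale. With TMM factors the median log2 fold change was -0.20 for the immunoproteasome and 0.55 for the constitutive subunits. With library totals these medians were -0.51 and 0.26. The constitutive subunit Psmb5 had 95.7, 95.6 and 95.6 FPKM in the mutant and 74.2, 74.0 and 86.4 FPKM in the WT libraries. Psmb7 had 31.1, 31.9 and 31.1 FPKM against 24.1, 25.0 and 29.1 FPKM. Psmb6 had 38.6, 40.7 and 39.8 FPKM against 34.7, 38.4 and 38.3 FPKM, groups that were apart by a narrow gap. All 3 constitutive subunits were thus higher in every mutant library, a pattern that 6.09% of all genes showed in FPKM. Their log2 fold changes with TMM factors were 0.57 ± 0.14 for Psmb5, 0.55 ± 0.15 for Psmb7 and 0.39 ± 0.11 for Psmb6 (SE; adjusted p = 0.0934, 0.0984 and 0.106, edgeR). All 3 were below an unadjusted p of 0.05, beside 11.5% of all genes, and 2 of 3 with library totals, beside 3.73%. Without WT 8, Psmb5 passed with an adjusted p of 0.0452, in a fit that called 2.70% of all genes higher. In Psmb5 7.07% of the 150-base stretches also occur in Gm3375. In Psmb7 11.8% of exon bases also belong to Nek6, a gene on the other strand, so that reads of this pair may have been mixed.

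The other 11 subunits of the proteasome core, which are common to both kinds of particle, had positive log2 fold changes with TMM factors, with a median of 0.36. In this direction 10 of them were below an unadjusted p of 0.05, beside 11.5% of all genes. With library totals their median was 0.06 and none was below an unadjusted p of 0.05, beside 3.73% of all genes higher and 30.4% lower. Psma5 (31.2, 34.2 and 34.4 against 25.8, 30.4 and 27.9 FPKM) was the only one of the 11 whose groups were apart in FPKM. On TMM-scaled counts all 11 were apart in the higher direction. Of all genes, 6.09% were so in FPKM and 16.9% on TMM-scaled counts. The proteasome activators and assembly factors had a median of -0.11 with library totals and 0.20 with TMM factors. With TMM factors 9 of 9 were positive and 2 of them below an unadjusted p of 0.05, beside 11.5% of all genes. Psme4, the PA200 activator, was at 0.50 and Pomp, which assembles the core, at 0.37. The interferon-inducible PA28 subunits Psme1 (0.09) and Psme2 (0.04), named after their values were seen, stood between the immunoproteasome and the core subunits.

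A further 5 ratios were formed after the data were seen, and their exact two-sided permutation p-values were adjusted over these 5. The ratio of H2-D1 to H2-K1 was 0.624, 0.552 and 0.626 in the mutant and 0.731, 0.836 and 0.749 in the WT libraries. It was 22.2% lower in the mutant (-0.36 on the log2 scale, exact p = 0.10, adjusted 0.125), with groups apart. These are the 2 genes whose 28-base enhancer stretches differ at 1 position. On TMM-scaled counts the groups overlapped for each of the 2 genes, and a link between sequence and level was not tested. Nlrc5 relative to B2m was lower by 26.6%, and Tap1 relative to B2m was at -0.40 on the log2 scale, each with groups apart and the same adjusted exact p of 0.125. Without WT 8 the difference of Nlrc5 to B2m went from -0.45 to -0.27 on the log2 scale. H2-K1 relative to B2m was near even, from 0.238 to 0.247 in the mutant and from 0.227 to 0.233 in the WT libraries, with narrow groups that were apart in the higher direction. For Tap2 to Tap1 the groups overlapped, with an exact permutation p of 0.80, a difference of -0.11, and 0.05 without WT 8.

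Genes that work with the 10 members were followed in the same edgeR fit, and none of the lists below held a gene past an adjusted p of 0.05 with all 6 libraries. Of all genes tested, 14.8% were below an unadjusted p of 0.05 in the lower and 11.5% in the higher direction, and the counts of each list stand beside these shares. With TMM factors 10028 of the 18931 genes were negative, and with library totals 14777 were. Peptide trimming and loading helpers had a median log2 fold change of 0.19, with 11 of 12 positive. Lnpep, an aminopeptidase of endosomal cross-presentation, was at -0.39 with 1.88 to 1.98 FPKM in the mutant and 2.64 to 3.74 FPKM in the WT libraries. Lap3, a cytosolic leucine aminopeptidase, was at 0.63, from 87.2 to 99.4 FPKM against 70.5 to 77.9 FPKM. One helper was below an unadjusted p of 0.05 in the lower and 2 in the higher direction. With library totals 11 of the 12 were negative, where most genes are.

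The other class I genes of the H2-Q, H2-T and H2-M regions had 12 tested of 15 listed, with a median of -0.20 (-0.12 without WT 8) and 8 negative. At an unadjusted p of 0.05 there were 4 of 12, all lower, beside 14.8% of all genes: H2-M2 (-1.26), H2-Q2 (-1.26), H2-T10 (-0.55) and H2-M3 (-0.44). H2-M3 presents formylated peptides, and it had 3.63, 2.89 and 2.79 FPKM in the mutant against 4.78, 6.81 and 4.12 FPKM. H2-Q10, the most abundant gene of the list and named after its values were seen, went the other way. It was at 0.43 (0.28 without WT 8), with 492 to 544 FPKM in the mutant against 416 to 498 FPKM. The summed FPKM of the list overlapped, at 666 to 720 in the mutant and 690 to 712 in the WT libraries. H2-M5 was at 0 in Prdx1 C52S 2 and 4, with counts of 4, 0 and 0 in the mutant and 8, 14 and 18 in the WT libraries, and was not tested. Class I-like genes outside the MHC were mostly positive with TMM factors, with a median of 0.38 (0.24 without WT 8) and 5 of 6 positive. Cd1d1, which presents lipids to natural killer T cells, was at 0.79, with 94.7, 87.8 and 82.9 FPKM in the mutant and 63.9, 49.4 and 70.7 FPKM in the WT libraries. Without WT 8 it was at 0.59 with an edgeR adjusted p of 0.0237.

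On the side of regulation, the factors that bind class I promoters had no common direction, with a median of -0.01 and 7 of 13 negative. Irf8 (-0.66), the NF-Y subunit Nfya (-0.35) and the NF-kB subunit Nfkb1 (-0.37, and -0.23 without WT 8), the last named after its value was seen, were below an unadjusted p of 0.05 in the lower direction, 3 of 13 beside 14.8%. Nfyb (0.51) and Atf1 (0.37) were so in the higher direction, and neither separated the groups in FPKM. In the interferon signal chain 9 of 10 tested genes were negative, with a median of -0.09. Its lowest gene was Ifngr1, the ligand-binding chain of the interferon-gamma receptor, with 6.72, 5.83 and 6.45 FPKM in the mutant and 14.6, 25.3 and 12.0 FPKM in the WT libraries. Ifngr1 was at -1.12 ± 0.19 (SE, adjusted p = 0.0654, edgeR), and without WT 8 at -0.87 with an adjusted p of 0.0136. Ifngr2, the second chain of that receptor, was at -0.32 and Stat2 at -0.25. Ifng itself was listed at 0 in a library and was not tested.

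Genes that interferon-gamma is known to induce had a median of -0.14, with 13 of 19 negative and 5 below an unadjusted p of 0.05, all lower, beside 14.8% of all genes. Without WT 8 the median was -0.26 and the count 3. Gbp8, a guanylate-binding protein, was at -1.06, with 1.33, 1.63 and 1.43 FPKM against 3.35, 5.51 and 2.66 FPKM. Gbp9 was at -0.54 (-0.33 without WT 8), Tgtp1 at -1.02 and Socs1 at -1.07. Receptors of immune cells that bind class I molecules, listed together with related receptors, had a median of -0.91, with 6 of 7 negative. Of these 7 genes, 4 were below an unadjusted p of 0.05, all lower, beside 14.8% of all genes. Without WT 8 that median was -0.54. Cd8a, the co-receptor chain of cytotoxic T cells, had 0.13, 0.20 and 0.16 FPKM in the mutant and 1.01, 1.49 and 0.66 FPKM in the WT libraries. It was at -2.31 ± 0.33 (SE, adjusted p = 0.0553, edgeR), and at -2.11 with 0.0228 without WT 8. With all 6 libraries no gene had an adjusted p below 0.0553, a value shared by a macrophage or pan-leukocyte marker. Cd8b1 was at -2.11, Pirb, an inhibitory receptor of myeloid and B cells, at -0.91, and Lilrb4a at -0.39.

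**Figure D4:**
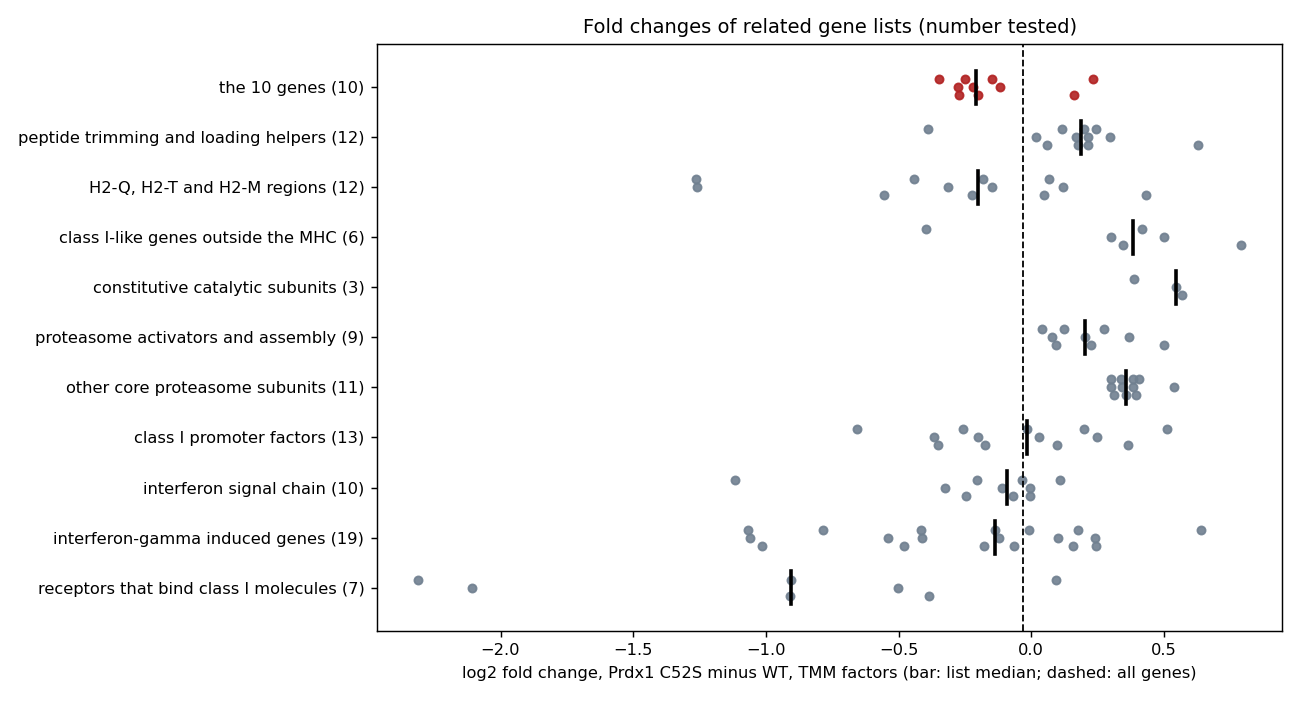
Log2 fold change (x axis, Prdx1 C52S minus WT, TMM factors) of every tested gene of the 10 described here and of the related lists; points are genes, black bars list medians, and the dashed line the median of all genes. The 10 genes (median -0.21) and the H2-Q, H2-T and H2-M genes (-0.20, and -0.12 without WT 8) lie lower than the constitutive catalytic subunits (0.55) and other core proteasome subunits (0.36); with library totals the medians of the 10 genes and of the other core subunits are -0.51 and 0.06.

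Summed markers (FPKM) of macrophages and leukocytes, T and NK cells, cholangiocytes and stellate cells were lower in every mutant than every WT library. Of all genes tested, 36.7% showed this pattern in FPKM. The fold changes given for these marker lists are with TMM factors unless another scale is named. In bulk liver fewer cells of a type and less RNA per cell cannot be told apart. The summed FPKM of 12 macrophage and pan-leukocyte markers was 334 to 365 in the mutant and 429 to 640 in the WT libraries, with 8 of 12 fold changes negative. For 12 T and NK cell markers the sum was 2.16 to 3.21 against 5.39 to 11.5, with 12 of 12 negative and Gzma listed at 0 in a library. The sum of 8 cholangiocyte markers was 67.9 to 136 against 234 to 844, the highest value being that of WT 8 and the next 364. Of their fold changes 8 of 8 were negative. For 8 stellate cell markers it was 63.0 to 79.5 against 87.7 to 137, with 6 negative and 2 positive. Hepatocyte markers summed to 29694 to 31894 in the mutant and 27865 to 29150 in the WT libraries, so that markers of the labelled tissue were abundant in all 6 libraries. This sum was higher in every mutant library, a pattern that 6.09% of all genes showed in FPKM. With TMM factors 8 of 10 fold changes were positive, while with library totals 5 of 10 were negative and the median was 0.02. B cell markers (13.3 to 26.2 against 10.8 to 19.5) and sinusoidal endothelial markers (57.0 to 64.7 against 41.2 to 74.2) overlapped. For the endothelial markers the overlap rested on WT 8 at 41.2, while WT 6 and WT 9, at 74.2 and 73.0, lay above every mutant library. Their median log2 fold change was 0.26 with TMM factors and -0.15 without WT 8. The part of these cell markers in the values of the 10 genes was not tested.

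Genes beside the 10 members were also read. There were 101 tested genes that start within 250 kb of one of them and are neither H2 genes nor on a list. With TMM factors 60 of these were negative, and their median was -0.08. Of these neighbours 18 were below an unadjusted p of 0.05 in the lower direction, beside 14.8% of all genes, and 7 in the higher direction, beside 11.5%. Slc12a4, a potassium-chloride cotransporter gene 7.86 kb from Psmb10, was at -0.51, with 5.37, 5.38 and 5.73 FPKM in the mutant and 8.82, 11.2 and 8.82 FPKM in the WT libraries. Rgl2, 13.6 kb from Tapbp, was at -0.59, and the gene model Gm15889, 56.5 kb from Nlrc5, at -1.74. The segment on chromosome 17 had 54 neighbours (median -0.10) and that on chromosome 8 had 39 (median -0.01). With all 6 libraries no gene tested passed an adjusted p of 0.05 in edgeR, so none of these neighbours could. Without WT 8, 6 of the 101 neighbours passed in the lower direction, beside 1.94% of all genes. In the higher direction 1 passed, beside 2.70%. Of the 6 lower genes, 4 were on chromosome 17 and 2 on chromosome 8.

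**Figure D5:**
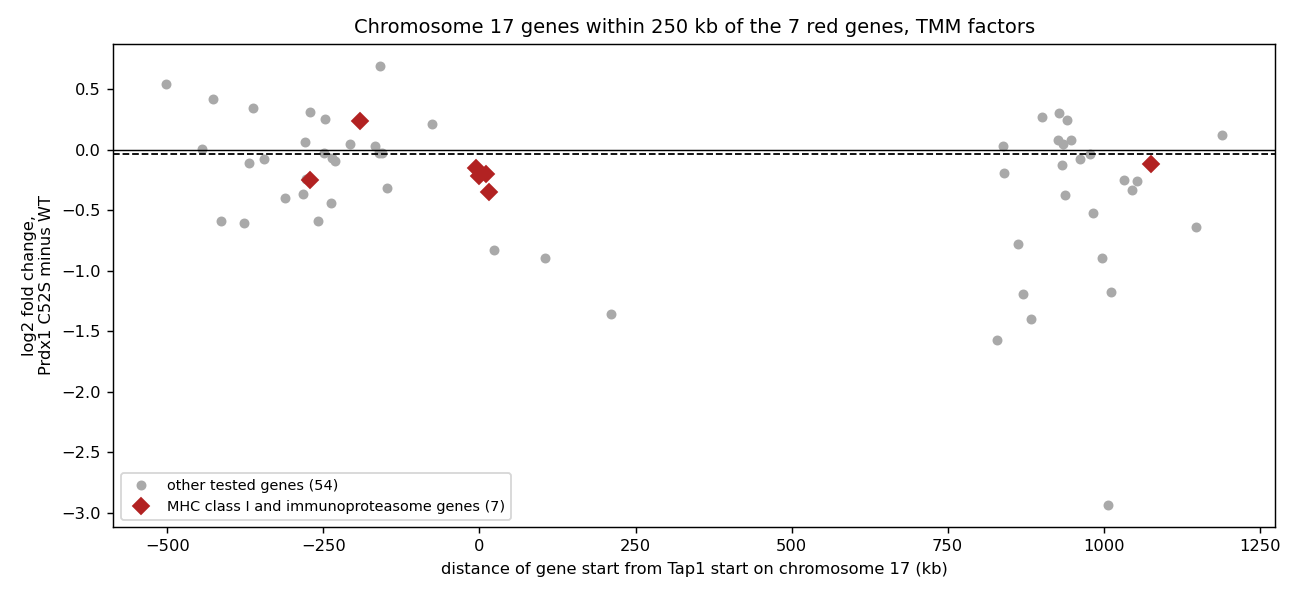
Log2 fold change (y axis, Prdx1 C52S minus WT, TMM factors) against the distance of the gene start from that of Tap1 (x axis, kb) for the 7 genes on chromosome 17 (red diamonds) and 54 tested neighbours (grey points). The 4 clustered genes Psmb9, Tap1, Psmb8 and Tap2 lie between -0.15 and -0.35, H2-K1 at 0.23 with TMM factors (-0.06 with library totals), and the neighbours on both sides of the median of all genes (dashed).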

How the data were processed

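Per the labels' protocols, oligo(dT)-selected liver RNA was made into dUTP-marked paired-end libraries with molecular identifiers. The deposited table holds, per the file headers, an FPKM value and an estimated count for each gene and library. Among the tools in the submitters' processing notes are StringTie 1.3.4d and HISAT2 2.0.4, then UMI-tools and cutadapt 1.9; roles and order are not given there. The notes name mm9, but 25866 of 29642 matched identifiers, 8 of the 10 members among them, have the coordinates of GENCODE M21 (GRCm38). Deposited estimated counts peak at 4 among the low values (6204 values, beside 3538 at 3), so about 4 counts may stand for 1 fragment. Count models would then take low genes as more precise than they are.

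Rounded counts went into edgeR 4.0.16 (R 4.3.3; filterByExpr, TMM, robust quasi-likelihood F-tests, two-sided, Benjamini-Hochberg over 18931 genes, threshold 0.05), after tests on simulated data. Over all 6 libraries the common coefficient of biological variation came to 0.310 (0.245 leaving out WT 8). SE was derived as log2 fold change over root F. FPKM ratios were tested by exact permutation over libraries. Alternatives used library totals, DESeq2 1.42.0, limma 3.58.1 and each library left out. The members, the gene lists and the tests were chosen with earlier results of these data known. Named were all 10 members, by rule at most 4 genes of each list and 3 neighbours by smallest p, and the constitutive subunits; other genes, Nfkb1 among them, are named as chosen afterwards. H2-T3 and H2-M9 of the lists matched no row.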

Additional observations from a re-analysis of the deposited data

How the results depend on the processing

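At an adjusted p of 0.05 edgeR called 0 of 18931 genes lower and 0 higher in Prdx1 C52S (2807 and 2176 at an unadjusted p under 0.05). Lower and higher calls were 125 and 35 with library totals, 1698 and 1145 with DESeq2, 10 and 8 with quantile normalisation, 91 and 105 without a filter, 962 and 975 with limma voom and library weights, and 40 and 43 with counts divided by 4. They were 118 and 40 with limma on log2(FPKM + 1), 221 and 58 on log2(FPKM + 0.1), and 1152 and 200 with library totals and without WT 8, a setting added after the data were seen. Leaving out 1 library gave 0 to 375 lower and 0 to 522 higher, the highest without WT 8, and 69 and 63 without WT 9.

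Members below an adjusted p of 0.05 were 0 in all settings but library totals without WT 8, with 1. Below an unadjusted p of 0.05 they were 4, and 8 with library totals with and without WT 8, 8 with both FPKM pseudocounts, 7 with quantile normalisation and 1 with DESeq2. Leaving out 1 library gave 0 to 4. The median of the members, -0.21, was -0.51 with library totals, -0.44 and -0.50 with the pseudocounts of 1 and 0.1, and -0.41 with library totals without WT 8. With 1 library left out it ran from -0.24 (without WT 9) to -0.13 (without Prdx1 C52S 1).

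H2-K1 changed sign to -0.056 with library totals, -0.26 with quantile normalisation, -0.0496 and -0.0497 with the pseudocounts of 1 and 0.1 and -0.079 with library totals without WT 8. B2m did so in the same settings, at -0.13, -0.39, -0.12, -0.12 and -0.16. Psmb9 ran from -0.28 to 0.018 with 1 library left out, positive without WT 6. Nlrc5 was at -0.44 with library totals without WT 8. The ratio of Tap2 to Tap1 was 0.045 without WT 8; the other ratios kept their direction, with Nlrc5 to B2m at -0.27 without WT 8. The cause of these changes was not tested. No paired analysis was possible because the labels of the 2 groups share no replicate number. By exact permutation a single ratio cannot go below p = 0.10 with 3 libraries a group.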
